A study of Mus musculus with 30 samples.

Results

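The 37 genes described here are type I interferon stimulated genes, chosen by name from a list and found among the 21073 genes of the table by their symbols, with all 37 present. They were measured by RNA-Seq in the extensor digitorum longus (EDL), a fast hindlimb muscle, of wild-type female SJL/J mice. EAE (experimental autoimmune encephalomyelitis, a model of multiple sclerosis) was induced with a peptide of the myelin proteolipid protein (PLP) emulsified in complete Freund's adjuvant (CFA) and injected subcutaneously, without pertussis toxin. OVA-immunized mice received ovalbumin, a protein foreign to the mouse, in CFA, and unimmunized (Ctrl) mice received neither antigen nor CFA, so that the antigen and the adjuvant cannot be told apart in the comparison of OVA with Ctrl mice. Muscles were taken on day 14, at the peak of EAE, or on day 40, in chronic remission, from 5 mice in each of the 6 groups. Each of the 30 mice was sampled once, and the labels give the replicate numbers no meaning beyond naming mice. The age of the mice was not given in the sources used here.

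Type I interferons (interferon alpha and beta) bind a receptor made of IFNAR1 and IFNAR2, whose kinases TYK2 and JAK1 phosphorylate STAT2, among others. STAT2 and IRF9 are subunits of the complex ISGF3, which binds the interferon-stimulated response element (ISRE) in promoters. The genes switched on in this way encode antiviral proteins and also parts of the pathway itself, such as STAT2, IRF9 and IRF7, and many of them are expressed at a low tonic level in healthy tissue. Interferon gamma uses another receptor and acts through a different element (GAS), and a part of the genes answers to both.

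The promoter sequences of the members were searched for the ISRE, which the choice of the list by name did not use. RefSeq promoter windows (assembly GRCm38.p6, from 250 bases before to 50 bases after a start) were matched for 27 of the 37 members. The letters GAAA, any 2 bases and GAAA again, the core of the ISRE, were found on either strand in the windows of 13 of these 27 members (48.1%), and in 3.99% of all 27018 genes with a window. The GAS letters TTC, any 3 bases and GAA were found in 22.2% of the members and 9.55% of all genes. In 40 other interferon stimulated genes with a window, 60.0% had the ISRE letters and 10.0% the GAS letters. In 20 genes induced mainly by interferon gamma the shares were 55.0% and 45.0%, so that the ISRE letters are not particular to the members. These counts are descriptions of the letters and show no binding. Of the members with a match, 6 had at least 2, which overlap in ISG15, BST2 and OAS1A. The 60-base stretches printed here, on the strand of the gene from 5′ to 3′ with the match in capitals, belong to members whose values are given in the results, so that the element can be read beside them; where the capitals begin with TTTC, the match lies on the strand opposite to the gene.

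IFIT3 (chr19:34583348-34583407, plus strand): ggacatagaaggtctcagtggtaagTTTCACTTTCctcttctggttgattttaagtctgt
IFIT3B (chr19:34607744-34607803, plus strand): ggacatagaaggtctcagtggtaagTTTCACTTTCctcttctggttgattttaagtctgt
ISG15 (chr4:156200856-156200915, minus strand): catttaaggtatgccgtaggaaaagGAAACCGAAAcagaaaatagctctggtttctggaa
BST2 (chr8:71537562-71537621, minus strand): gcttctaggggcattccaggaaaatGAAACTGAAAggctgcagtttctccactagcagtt
IFIT1 (chr19:34640779-34640838, plus strand): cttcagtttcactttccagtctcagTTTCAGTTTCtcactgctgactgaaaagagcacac
STAT2 (chr10:128270251-128270310, plus strand): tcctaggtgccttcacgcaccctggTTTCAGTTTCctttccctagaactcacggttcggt
RSAD2 (chr12:26456538-26456597, minus strand): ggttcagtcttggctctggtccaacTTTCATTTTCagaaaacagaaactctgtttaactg
OAS3 (chr5:120777700-120777759, minus strand): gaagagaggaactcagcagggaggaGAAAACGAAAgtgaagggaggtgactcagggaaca

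The stretches of IFIT3 and IFIT3B are the same in every base, and since the genes are near-identical copies, reads of these genes could have been split between them in either direction by the authors' counting. In ISG15, 3 matches follow each other at steps of 6 bases, beginning 78, 72 and 66 bases before the start. No match was found in the windows of 14 members, IRF7, IRF9, OASL2, XAF1, UBA7, TRIM25 and DTX3L among them. Members without a window, and hence without a count, were OAS2, MX1, MX2, PARP9, PARP14, DHX58, IFI27, RTP4, ZBP1 and USP18.

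Levels are given in RPKM, the reads of a gene scaled by exon length and sequencing depth, a unit that is per length and can be set side by side between genes. Differences are log2 fold changes of RPKM + 0.1 with their standard error (SE) and the Benjamini-Hochberg adjusted p of limma over all genes tested, and a gene counts as called where the adjusted p is below 0.05 and the fold change above 1.5. With 5 mice in a group these p-values measure the spread between mice, and the comparisons within a day share mice. Reads per mouse were estimated at 15.0M to 23.5M, at which 1 read on 2000 exon bases is worth 0.025 RPKM, and any 2 mice of a group differed by 9.93 times the counting noise or more. Fast-fibre genes summed to 87860 to 129400 RPKM in the Ctrl, 80760 to 118600 in the OVA and 61160 to 81420 in the EAE mice of day 14, so that the defining genes of a fast muscle were abundant in all, with EAE mice under all Ctrl mice. Because 17 of the 37 members did not exceed a mean of 3 RPKM in the EAE or the Ctrl mice of day 14, and those that did could pass through the Ctrl mice alone, counts over the members come from a fit with no filter on low values. The values of single members come from the fit of genes with a mean above 3 RPKM in a compared group, unless stated. In the other comparisons too, members could pass this filter through only the group in which they were higher. Where genes with an unadjusted p below 0.05 are counted, the share over all genes was not counted beside them. Shares of all genes refer to called genes or to groups without overlap, and no conclusion is drawn from the unadjusted counts.

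At the peak of EAE, interferon stimulated genes were lower in EDL muscle of EAE-induced mice than of unimmunized mice across nearly the whole list. Of the 37 members 35 were called lower, 0 were called higher and all 37 had a fold change below zero, while 11.3% of the 17474 genes tested without a filter were called lower and 9.17% higher. The groups did not overlap for 29 members, as for 8.67% of all genes in that direction. The median log2 fold change of the members was -1.45, beside 0 for all genes. Among genes above 3 RPKM, 18 of 20 members were called lower against a background of 11.8%, and with a filter that does not see the groups (a mean above 1 RPKM over all mice) 30 of 32 were, against 12.6%. Above 3 RPKM 1036 of all genes were called lower and 1282 (14.6%) higher, which became 1240 and 985 with median-of-ratios scaling; 19 of 21 members were called lower under it.

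Unimmunized mice of day 14 differed widely from each other in these genes. Mouse 1 of this group had the highest value of its group for 20 members and mouse 4 for 16, while mice 2 and 5 were lowest for 16 and 17. Without mice 1 and 4, a choice made after seeing the data, 30 of 37 members were called lower in EAE than in Ctrl mice. Of all genes 1437 were called lower in this fit with no filter, and 1966 with all mice. The mean log2(RPKM + 0.1) over the 37 members was 1.81 ± 0.43 (SD, n = 5) in Ctrl, 1.07 ± 0.24 in OVA and 0.34 ± 0.27 in EAE mice on day 14. On day 40 it was 1.71 ± 0.18, 1.96 ± 0.32 and 1.54 ± 0.36. The groups of day 14 stepped down from Ctrl over OVA to EAE without overlap, whereas those of day 40 overlapped.

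**Figure D1:**
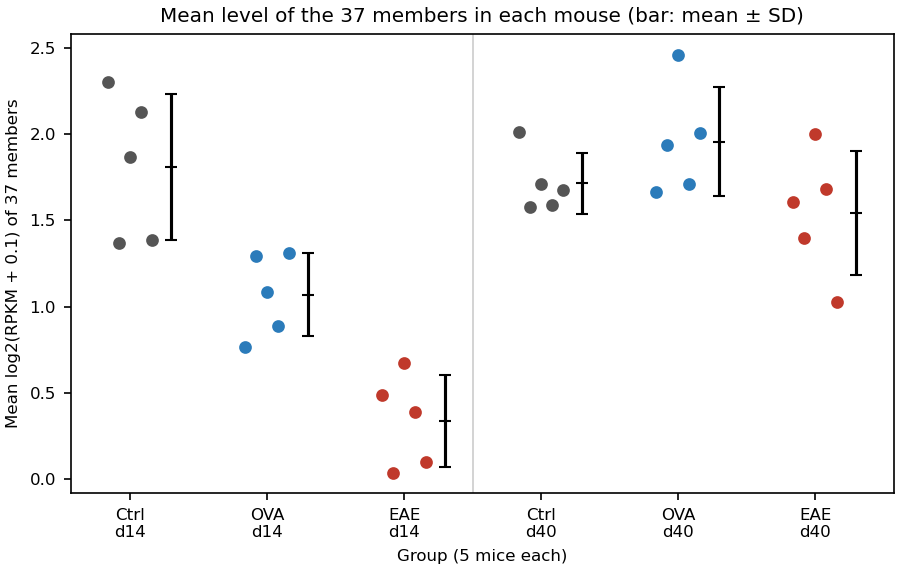
Mean log2(RPKM + 0.1) of the 37 members (vertical axis) in each of the 30 mice, by group and day. Points are mice and bars the group mean with its SD (n = 5); the EAE mice of day 14 sit between 0.037 and 0.673, under the OVA mice at 0.765 to 1.311 and the Ctrl mice at 1.369 to 2.304, and the 3 groups of day 40 overlap.

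All 3 signalling and transcription factor members were called lower in EAE than in Ctrl mice. IRF9 (chr14:55603571-55610030, GRCm38), the DNA-binding subunit of ISGF3, was at 8.77, 6.57, 8.07, 15.0 and 8.49 RPKM in the Ctrl mice of day 14, at 4.37, 6.04, 5.88, 5.09 and 6.70 in the OVA mice and at 3.52, 2.18, 4.21, 3.97 and 2.54 in the EAE mice. Every EAE mouse lay under every mouse of both other groups, while the highest OVA mouse reached the lowest Ctrl mouse (log2 fold change -1.47, SE 0.21, adjusted p = 7.29e-05). IRF7 (chr7:141262706-141266481), which amplifies interferon alpha transcription, stood at 31.0, 7.54, 12.3, 7.33 and 3.60 RPKM in Ctrl, 2.57, 2.86, 2.29, 2.45 and 4.31 in OVA and 1.70, 1.08, 1.79, 1.56 and 1.08 in EAE mice. Ctrl mouse 1 stood far above the rest, yet the EAE mice were below the lowest mouse of either other group, and the difference from Ctrl was among the largest of the list (log2 fold change -2.67, SE 0.40, adjusted p = 8.72e-05). STAT2 (chr10:128270559-128292849), the ISGF3 subunit particular to this pathway, measured 3.76, 2.48, 4.05, 8.03 and 4.86 RPKM in Ctrl, 2.04, 3.88, 3.40, 2.41 and 2.77 in OVA and 1.80, 1.42, 2.48, 2.06 and 1.31 in EAE mice. Here the highest EAE mouse came just short of the lowest Ctrl mouse, at 2.475 and 2.481 RPKM, with Ctrl mouse 4 the highest (log2 fold change -1.24, SE 0.26, adjusted p = 0.00147).

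ISG15 is a ubiquitin-like protein that interferon-treated cells attach to other proteins; UBA7 activates it, HERC6 is its main ligase in mice and USP18 removes it and also restrains the receptor. All 4 were called lower. ISG15 (chr4:156199424-156200818), whose promoter holds the 3 overlapping matches shown above, had 26.8, 6.56, 11.5, 6.44 and 3.77 RPKM in Ctrl, 5.65, 3.61, 4.06, 3.50 and 9.46 in OVA and 2.88, 0.860, 1.54, 1.25 and 1.20 in EAE mice. Its EAE values lay under all others, while OVA and Ctrl mice overlapped (log2 fold change -2.53, SE 0.43, adjusted p = 0.000297). UBA7 (chr9:107975505-107984060) was measured at 3.76, 2.96, 4.34, 9.67 and 4.32 RPKM in Ctrl, 2.02, 3.24, 2.58, 2.45 and 2.60 in OVA and 1.79, 1.46, 2.45, 1.62 and 1.05 in EAE mice. Only the Ctrl and EAE mice were apart, and Ctrl mouse 4 was far above the others of its group (log2 fold change -1.45, SE 0.27, adjusted p = 0.000487). USP18 ranged over 1.58 to 5.46 RPKM in Ctrl and 0.411 to 1.01 in EAE mice, and HERC6 over 0.640 to 1.65 and 0.267 to 0.631, both without overlap.

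The IFIT proteins bind foreign RNA that lacks the cap methylation of the host, and the 4 members lie side by side on chromosome 19. Their median log2 fold change between EAE and Ctrl mice was -2.33, the largest of the 9 groups of members. IFIT3 (chr19:34583531-34588731) was at 21.0, 6.49, 12.2, 12.5 and 4.01 RPKM in Ctrl, 2.56, 2.69, 2.37, 2.41 and 3.88 in OVA and 1.58, 0.902, 1.90, 1.12 and 1.23 in EAE mice. The 3 groups were fully apart and in that order (log2 fold change -2.80, SE 0.34, adjusted p = 1.52e-05). IFIT3B (chr19:34607970-34613401) was at 6.80, 3.83, 4.18, 7.46 and 2.83 RPKM in Ctrl, 1.13, 1.64, 1.76, 1.24 and 1.22 in OVA and 0.325, 0.621, 1.20, 0.636 and 0.700 in EAE mice. Both immunized groups lay under all Ctrl mice and overlapped each other (log2 fold change -2.68, SE 0.29, adjusted p = 6.4e-06), with the reservation on its near-identical copy. IFIT1 ranged over 1.41 to 8.95 RPKM in Ctrl and 0.550 to 1.24 in EAE mice (log2 fold change -1.98, SE 0.37, adjusted p = 0.000591), and IFIT2 over 2.37 to 3.41 and 0.988 to 1.62 (in the fit without filter, log2 fold change -1.16, SE 0.16, adjusted p = 0.00012).

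Oligoadenylate synthetases (OAS) answer double-stranded RNA with a messenger that activates RNase L, and all 4 members of the family were called lower. OASL2 (chr5:114896936-114912234), the most abundant of them, was at 8.51, 3.06, 6.28, 4.47 and 2.50 RPKM in Ctrl, 1.51, 2.78, 1.94, 1.99 and 3.37 in OVA and 1.22, 0.894, 1.57, 1.24 and 0.812 in EAE mice. The OVA mice lay between the other groups and touched both (log2 fold change -1.92, SE 0.30, adjusted p = 0.000143). OAS2 (chr5:120730333-120749853) was low throughout, at 2.63, 0.968, 1.5, 2.10 and 0.994 RPKM in Ctrl, 0.494, 1.31, 0.915, 0.768 and 0.621 in OVA and 0.620, 0.363, 0.919, 0.491 and 0.306 in EAE mice, with EAE and Ctrl mice apart (without filter, log2 fold change -1.42, SE 0.32, adjusted p = 0.00354). OAS1A, which has close paralogs, ranged over 1.39 to 5.44 RPKM in Ctrl and 0.265 to 0.980 in EAE mice, and OAS3 over 0.105 to 1.24 and 0.0637 to 0.187, where the groups overlapped. The OAS3 values rest on a median of 9 reads per EAE mouse.

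Sensors of foreign nucleic acid and their regulators were lower by smaller amounts, with 6 of 6 called and a median log2 fold change of -0.83. EIF2AK2 (chr17:78852564-78882573), the kinase PKR that stops translation on double-stranded RNA, was at 5.69, 2.83, 3.49, 3.45 and 3.50 RPKM in Ctrl, 2.65, 3.23, 2.66, 2.14 and 3.25 in OVA and 2.58, 1.97, 2.28, 2.36 and 2.33 in EAE mice. EAE and Ctrl mice were apart by a narrow gap (log2 fold change -0.66, SE 0.17, adjusted p = 0.00509). The change fell under the fold threshold without Ctrl mouse 1 and in 4 of 11 other settings. It was -0.51 without that mouse or with a pseudocount of 1, and -0.49 where it was smallest. Among the RNA helicases DDX58 (RIG-I) had a log2 fold change of -0.87, IFIH1 (MDA5) of -0.76 and DHX58 (LGP2) of -1.64. The RNA-editing enzyme ADAR was at -0.78, and ZBP1, a sensor of left-handed nucleic acid that triggers necroptosis, stood out from the group (without filter, log2 fold change -2.52, SE 0.33, adjusted p = 7.04e-05). ZBP1 ranged over 1.19 to 4.24 RPKM in Ctrl, 0.588 to 1.44 in OVA and 0.231 to 0.504 in EAE mice, and the EAE mice lay under all others.

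The MX GTPases trap viral nucleocapsids and were near the lower end of what could be measured. MX2 (chr16:97535308-97560900) was at 1.69, 1.00, 0.933, 0.978 and 0.838 RPKM in Ctrl, 0.394, 0.436, 0.451, 0.263 and 0.443 in OVA and 0.292, 0.289, 0.221, 0.235 and 0.188 in EAE mice. Every mouse of both immunized groups was below every Ctrl mouse (EAE against Ctrl, without filter, log2 fold change -1.75, SE 0.19, adjusted p = 1.3e-05). MX1 ranged over 0.150 to 0.569 RPKM in Ctrl and 0.0338 to 0.0704 in EAE mice, the latter a median of 1.9 reads per mouse.

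All 8 of the other effectors were called lower. BST2 (chr8:71534255-71537456), or tetherin, which holds budding virus at the cell surface, was the most abundant of them in Ctrl mouse 1, at 130.3, 34.1, 38.1, 59.1 and 26.7 RPKM in Ctrl, 23.4, 20.8, 22.4, 14.8 and 31.2 in OVA and 14.1, 8.20, 15.7, 9.69 and 8.98 in EAE mice. EAE mice were apart from Ctrl mice but not from OVA mice (log2 fold change -2.13, SE 0.34, adjusted p = 0.000155). RTP4 (chr16:23520291-23614222), a chaperone of receptors that also limits viral replication, was at 13.5, 6.16, 8.39, 7.64 and 4.32 RPKM in Ctrl, 3.72, 4.39, 3.50, 2.86 and 6.75 in OVA and 3.15, 1.43, 2.68, 1.57 and 1.65 in EAE mice, with the same kind of gap (log2 fold change -1.85, SE 0.29, adjusted p = 0.000143). IFI27 (chr12:103434211-103440239), a small mitochondrial protein, was at 49.1, 40.5, 40.1, 58.5 and 34.1 RPKM in Ctrl, 40.1, 25.2, 26.2, 29.7 and 40.2 in OVA and 36.6, 21.1, 26.2, 22.9 and 24.3 in EAE mice. Its EAE and Ctrl mice overlapped (log2 fold change -0.76, SE 0.18, adjusted p = 0.00315), and without Ctrl mice 1 and 4 it was not called (-0.56, adjusted p = 0.0338, under the fold threshold, and 0.0503 with no filter). RSAD2 (viperin), which makes a chain-terminating nucleotide, ranged over 1.57 to 5.16 RPKM in Ctrl, 1.76 to 2.38 in OVA and 0.568 to 0.814 in EAE mice. Its neighbour CMPK2 had a log2 fold change of -1.30, IFI44 of -2.17, XAF1 of -1.87 and IFI35 of -0.98.

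The ADP-ribosylation and TRIM members held both exceptions. PARP9 (chr16:35938470-35972605), partner of the ubiquitin ligase DTX3L, was at 3.76, 3.92, 4.63, 7.06 and 5.31 RPKM in Ctrl, 2.71, 5.18, 4.52, 3.85 and 3.45 in OVA and 2.98, 2.50, 3.46, 2.94 and 2.62 in EAE mice (log2 fold change -0.72, SE 0.19, adjusted p = 0.00535), and without Ctrl mouse 4 or with a pseudocount of 1 the change was -0.58, under the fold threshold. PARP14 (chr16:35832874-35871544) was at 2.63, 1.98, 2.97, 9.22 and 3.77 RPKM in Ctrl, 1.20, 4.03, 3.25, 2.59 and 2.04 in OVA and 1.04, 1.51, 2.22, 1.88 and 1.35 in EAE mice, called although the groups overlapped (log2 fold change -1.14, SE 0.37, adjusted p = 0.0187). It passed the 3 RPKM filter only with Ctrl mouse 4, and was tested in 9 of the 10 fits that left out 1 mouse. With no filter and without Ctrl mice 1 and 4 it was not called (-0.82, adjusted p = 0.105). PARP12 had a log2 fold change of -0.93 and was called, whereas DTX3L had log2 fold change -0.10, SE 0.24, adjusted p = 0.762. The gene models of PARP9 and DTX3L overlap on opposite strands and the strand setting of the counting was not given, so that their values are uncertain. TRIM25 (chr11:88999376-89020293), the ubiquitin ligase that activates RIG-I, was at 4.48, 3.61, 4.78, 5.88 and 4.07 RPKM in Ctrl, 2.95, 4.78, 5.02, 4.34 and 4.06 in OVA and 3.60, 4.70, 5.37, 3.91 and 4.18 in EAE mice. The groups overlapped throughout (log2 fold change -0.06, SE 0.16, adjusted p = 0.768), and the sign of this small value turned when Ctrl mice 1 and 4 were left out (0.06). TRIM30A, with close paralogs, had a log2 fold change of -0.79 without filter and was called lower.

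**Figure D2:**
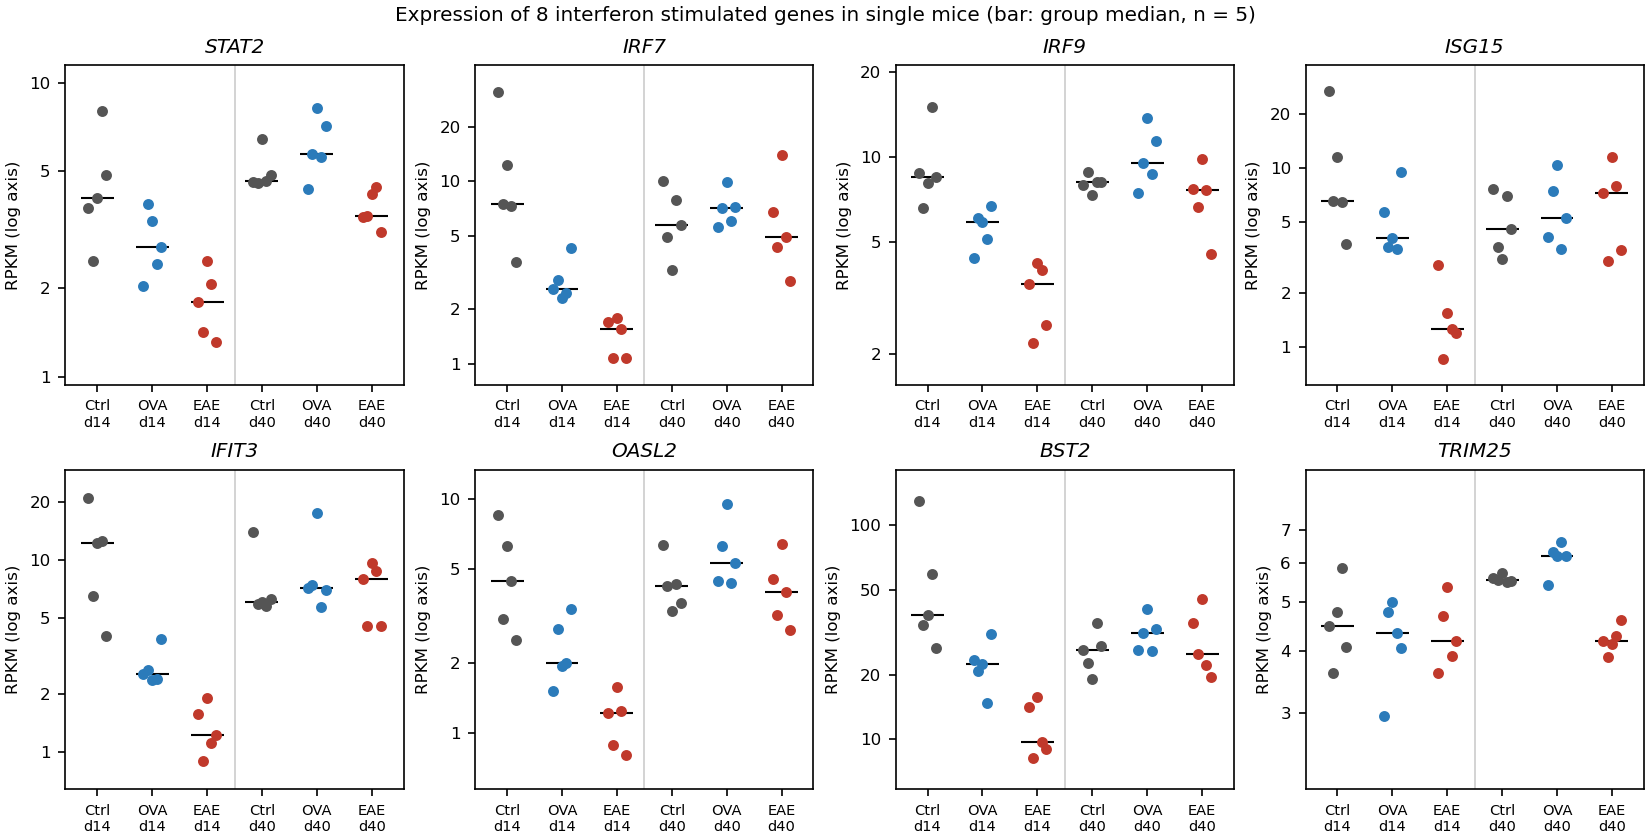
Level of STAT2, IRF7, IRF9, ISG15, IFIT3, OASL2, BST2 and TRIM25 in RPKM on a log axis, with a point for each mouse and a bar for the median of each group (n = 5), by treatment and day. The EAE mice of day 14 lie under all Ctrl mice of that day for the first 7 genes, with IFIT3 at 0.902 to 1.90 against 4.01 to 21.0 RPKM, while TRIM25 overlaps on day 14 and is lowest in EAE mice on day 40.

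OVA-immunized mice of day 14 lay between Ctrl and EAE mice for most members. Against OVA mice, 15 of the 37 members were called lower in EAE mice, beside 7.18% of all genes, with a median log2 fold change of -0.66 and 8 members without overlap (5.76% of all genes in that direction). Called were IRF9, ISG15, TRIM30A, IFIT2, IFIT3, IFIT3B, OAS1A, OASL2, DDX58, ZBP1, MX1, RSAD2, XAF1, IFI44 and RTP4. Among genes above 3 RPKM, 4 of 8 members were called (background 9.28%). These were ISG15 (log2 fold change -1.71, SE 0.43, adjusted p = 0.00607), RTP4 (log2 fold change -0.99, SE 0.29, adjusted p = 0.0142), BST2 (log2 fold change -0.99, SE 0.34, adjusted p = 0.0302) and IRF9 (log2 fold change -0.79, SE 0.21, adjusted p = 0.00921). The call of BST2 was lost in 6 of the 10 fits that left out 1 mouse each, with adjusted p between 0.0504 and 0.077, and none of the 4 PARP and DTX3L members was called.

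Between OVA and Ctrl mice of day 14 all 37 members again had fold changes below zero, with a median of -0.66, but few passed the test. In the fit without filter 2 of 37 members were called lower, MX2 (log2 fold change -1.23, SE 0.19, adjusted p = 0.0082) and IFIT3B, beside 0.0572% of all genes, and 23 had an unadjusted p below 0.05. Among genes above 3 RPKM, IFIT3 (log2 fold change -1.78, SE 0.34, adjusted p = 0.0478) and IFIT3B (log2 fold change -1.70, SE 0.30, adjusted p = 0.0321) were called, 2 of 20 members, beside 0.0472% of all genes, which is 4 of 8471. OVA and Ctrl mice did not overlap for 7 members, namely IFIT2, IFIT3, IFIT3B, MX2, USP18, XAF1 and CMPK2, as for 1.38% of all genes in that direction. IRF7, with log2 fold change -1.71, SE 0.40, adjusted p = 0.141, was not called. Both calls above 3 RPKM were lost when any 1 of 9 of the 10 mice was left out. Without Ctrl mice 1 and 4 no member was called, beside 0 of all genes called lower.

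Side by side, the median log2 fold change was -0.66 both from Ctrl to OVA and from OVA to EAE mice, while single members split differently. RSAD2 had a log2 fold change of -0.24 between OVA and Ctrl and of -1.49 between EAE and OVA mice. MX2 had -1.23 and -0.52, and IFIT3 -1.78 and -1.01. Both comparisons share the OVA mice, and the difference between them was not tested.

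**Figure D3:**
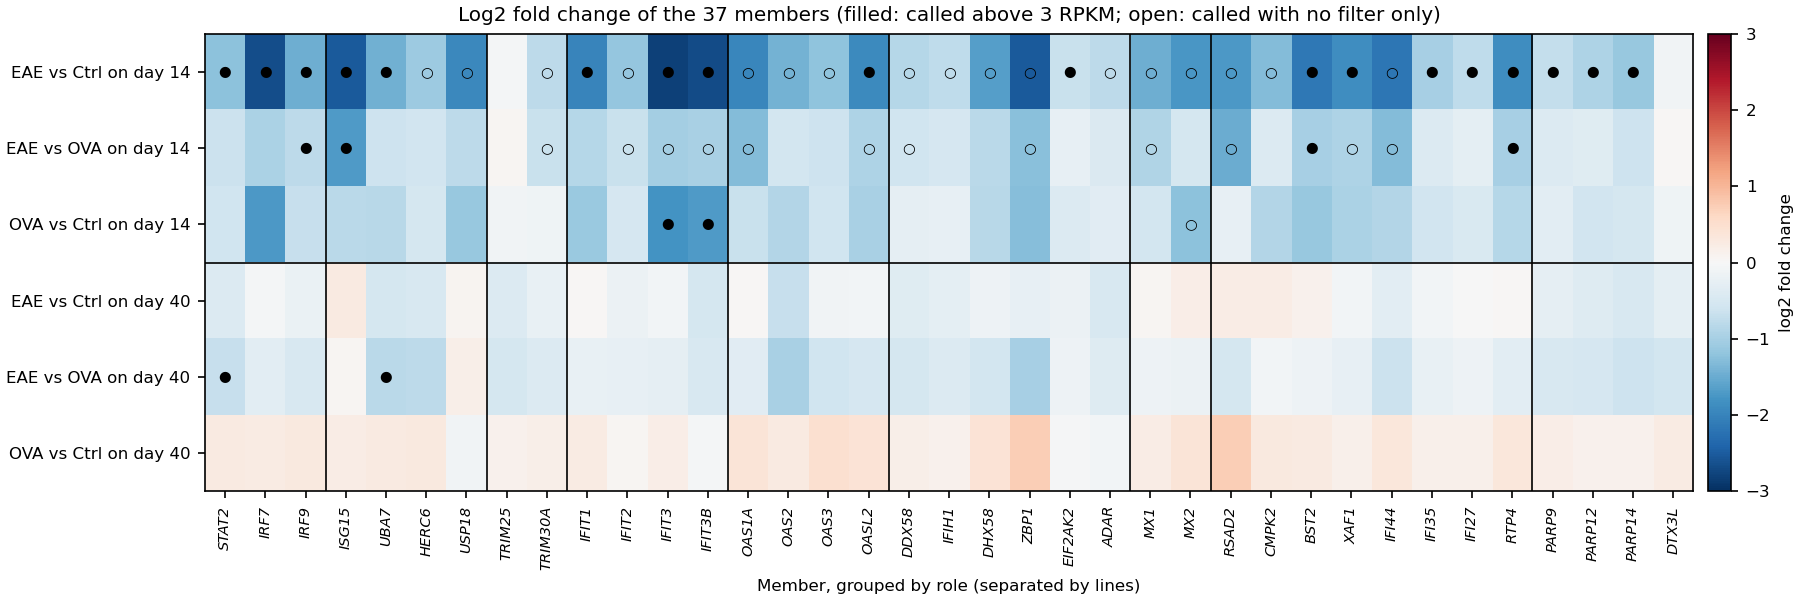
Log2 fold change of RPKM + 0.1 as colour (blue lower, red higher) for the 37 members in columns grouped by role and the 6 comparisons within a day in rows. Filled circles mark members called among genes above 3 RPKM and open circles those called only without a filter; the row of EAE vs Ctrl on day 14 is blue with a median of -1.45, the other rows of day 14 both have a median of -0.66, and the rows of day 40 are pale with medians of -0.18, -0.42 and 0.24.

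In chronic remission on day 40 the difference between EAE and Ctrl mice was small. None of the 37 members was called in the limma fit without filter, beside 0.285% of all genes called lower and 0.0342% higher, and 10 had an unadjusted p below 0.05; among genes above 3 RPKM, 0 of 22 were called, beside 0.391% of genes lower and 0.069% higher, and 6 had an unadjusted p below 0.05. The median log2 fold change was -0.18, with 27 members below zero. IFIT3 ranged over 5.74 to 13.9 RPKM in Ctrl, 5.71 to 17.6 in OVA and 4.53 to 9.60 in EAE mice, ISG15 over 3.10 to 7.59, 3.50 to 10.4 and 3.04 to 11.5, and IRF7 over 3.25 to 10.0, 5.61 to 9.91 and 2.84 to 14.0. BST2 ranged over 19.2 to 35.1 RPKM in Ctrl, 25.8 to 40.6 in OVA and 19.6 to 45.1 in EAE mice. For these 4 members the 3 groups overlapped.

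The 4 members whose EAE mice lay under all Ctrl mice on day 40 were TRIM25, STAT2, PARP12 and ADAR (background 3.44%). TRIM25, not called on day 14, was at 5.61, 5.54, 5.74, 5.50 and 5.53 RPKM in Ctrl, 5.42, 6.31, 6.20, 6.62 and 6.20 in OVA and 4.18, 3.88, 4.12, 4.27 and 4.60 in EAE mice. The EAE mice were below every other mouse of that day, and the difference had a low p but a fold under 1.5, both against Ctrl (log2 fold change -0.40, SE 0.07, adjusted p = 0.0175) and against OVA (log2 fold change -0.54, SE 0.07, adjusted p = 0.00683). STAT2 was at 4.59, 4.55, 6.44, 4.65 and 4.84 RPKM in Ctrl, 4.36, 5.73, 8.19, 5.59 and 7.14 in OVA and 3.48, 3.51, 4.17, 4.40 and 3.10 in EAE mice. UBA7 was at 4.93, 5.16, 6.30, 4.18 and 4.37 RPKM in Ctrl, 5.24, 6.47, 7.95, 4.76 and 6.03 in OVA and 4.30, 3.49, 3.81, 3.52 and 2.16 in EAE mice.

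Against the OVA mice of day 40, STAT2 (log2 fold change -0.70, SE 0.15, adjusted p = 0.0464) and UBA7 (log2 fold change -0.81, SE 0.17, adjusted p = 0.0464) were the 2 of 24 members called lower in EAE mice (background 0.174%). STAT2 overlapped by 1 mouse and UBA7 did not overlap. Neither call was made in the fit without filter, where 0 of 37 members and 0.0171% of all genes were called lower and 17 members had an unadjusted p below 0.05. When 1 mouse was left out, the call of STAT2 was lost in 9 and that of UBA7 in 8 of 10 fits. OAS2, at 2.58, 2.52, 3.47, 3.50 and 3.78 RPKM in OVA and 1.93, 1.36, 2.83, 1.23 and 0.992 in EAE mice, had the largest change among members above 3 RPKM but was not called (log2 fold change -0.96, SE 0.23, adjusted p = 0.0645), and PARP9, PARP14, HERC6, TRIM25 and UBA7 were the 5 members without overlap, as for 3.62% of all genes in that direction. PARP14 was at 4.05, 3.99, 6.55, 3.48 and 4.34 RPKM in Ctrl, 4.06, 4.60, 7.06, 3.90 and 5.05 in OVA and 2.97, 3.66, 3.52, 3.46 and 2.15 in EAE mice (log2 fold change -0.62, SE 0.19, adjusted p = 0.122).

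OVA and Ctrl mice of day 40 were not told apart by any member. In the limma fit 0 of 37 members, and 0% of all genes, were called, and 1 member had an unadjusted p below 0.05. With 33 members above zero the median log2 fold change was 0.24. OVA mouse 3 had the highest value of its group for 33 members.

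Between day 14 and day 40 the members were higher on day 40 in both immunized groups. The days are of different mice, so that day cannot be told apart from harvest. In EAE mice 31 of 37 members were called higher, beside 9.03% of all genes, and the days did not overlap for 26, as for 8.25% of all genes in that direction. The median log2 fold change was 1.20, and among genes above 3 RPKM 15 of 19 members were called (background 8.36%). Of these 19, only IRF9, TRIM25, BST2, IFI35 and IFI27 had a mean above 3 RPKM in the EAE mice of day 14. The rest passed the filter through the mice of day 40 alone. Of the members that did not, IRF9 and BST2 were called. IFIT3 (log2 fold change 2.28, SE 0.34, adjusted p = 3.98e-06), IFIT3B (log2 fold change 2.00, SE 0.31, adjusted p = 5.61e-06), ISG15 (log2 fold change 1.97, SE 0.43, adjusted p = 0.000408) and IRF7 (log2 fold change 1.94, SE 0.39, adjusted p = 0.000206) had the largest changes among members above 3 RPKM. The 6 members not called were TRIM25 (-0.04), DTX3L (0.02), OAS3 (0.73), EIF2AK2 (0.57), IFI35 (0.55) and IFI27 (0.38), of which the last 3 had an adjusted p below 0.05 and a fold under 1.5.

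In OVA mice 22 of 37 members were called higher on day 40, beside 3.63% of all genes, with all 37 above zero and a median of 0.85. The days did not overlap for 21, as for 6.19% of all genes in that direction, and among genes above 3 RPKM 17 of 24 members were called (background 2.25%). Here too members could pass the filter through the mice of day 40 alone. OAS2 (log2 fold change 1.87, SE 0.29, adjusted p = 0.00012), IFIT3 (log2 fold change 1.55, SE 0.34, adjusted p = 0.00428) and IFIT3B (log2 fold change 1.5, SE 0.31, adjusted p = 0.00248) led among members above 3 RPKM. ISG15 (log2 fold change 0.21, SE 0.43, adjusted p = 0.797) and BST2 (log2 fold change 0.50, SE 0.30, adjusted p = 0.313) were not called, and RSAD2 had a log2 fold change of 0.34 without filter. In Ctrl mice 21 members were below and 16 above zero, and 1 of 37 was called lower, BST2 (log2 fold change -0.92, SE 0.30, adjusted p = 0.0234), beside 2.6% of all genes (4.35% of those above 3 RPKM); it was not called without Ctrl mouse 1 of day 14 or Ctrl mouse 3 of day 40.

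The change of the EAE effect between the days, tested as an interaction over all 30 mice, was called for 23 of 37 members without filter, beside 7.77% of all genes, and in each of them EAE mice stood higher relative to Ctrl mice on day 40 than on day 14. Among genes above 3 RPKM it was called for 15 of 22, beside 11.7%. All 4 IFIT members, both MX members and all 8 other effectors were among the 23, and none of the 4 PARP and DTX3L members was. ISG15 (log2 fold change 2.80, SE 0.60, adjusted p = 0.000578), IFIT3 (log2 fold change 2.72, SE 0.48, adjusted p = 7.43e-05), IRF7 (log2 fold change 2.60, SE 0.56, adjusted p = 0.000537) and BST2 (log2 fold change 2.27, SE 0.42, adjusted p = 0.000123) had the largest interactions among members above 3 RPKM. Of the OVA effect no member was called (0 of 37 in limma, beside 0% of all genes called). An unadjusted p below 0.05 was found for 26, with no share over all genes to set beside it. Of the difference between EAE and OVA mice only ISG15 was called (log2 fold change 1.76, SE 0.60, adjusted p = 0.0253), 1 of 37 beside 4.6%, or 8.16% of the genes above 3 RPKM. The call of ISG15 was lost without OVA mouse 5 or EAE mouse 2 of day 14, or OVA mouse 4 or EAE mouse 3 of day 40. Without Ctrl mice 1 and 4 of day 14 the interaction of EAE with Ctrl mice was called for 19 of 37 members. Of all genes 1104 were called in this direction without these mice, and 1399 with all mice.

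**Figure D4:**
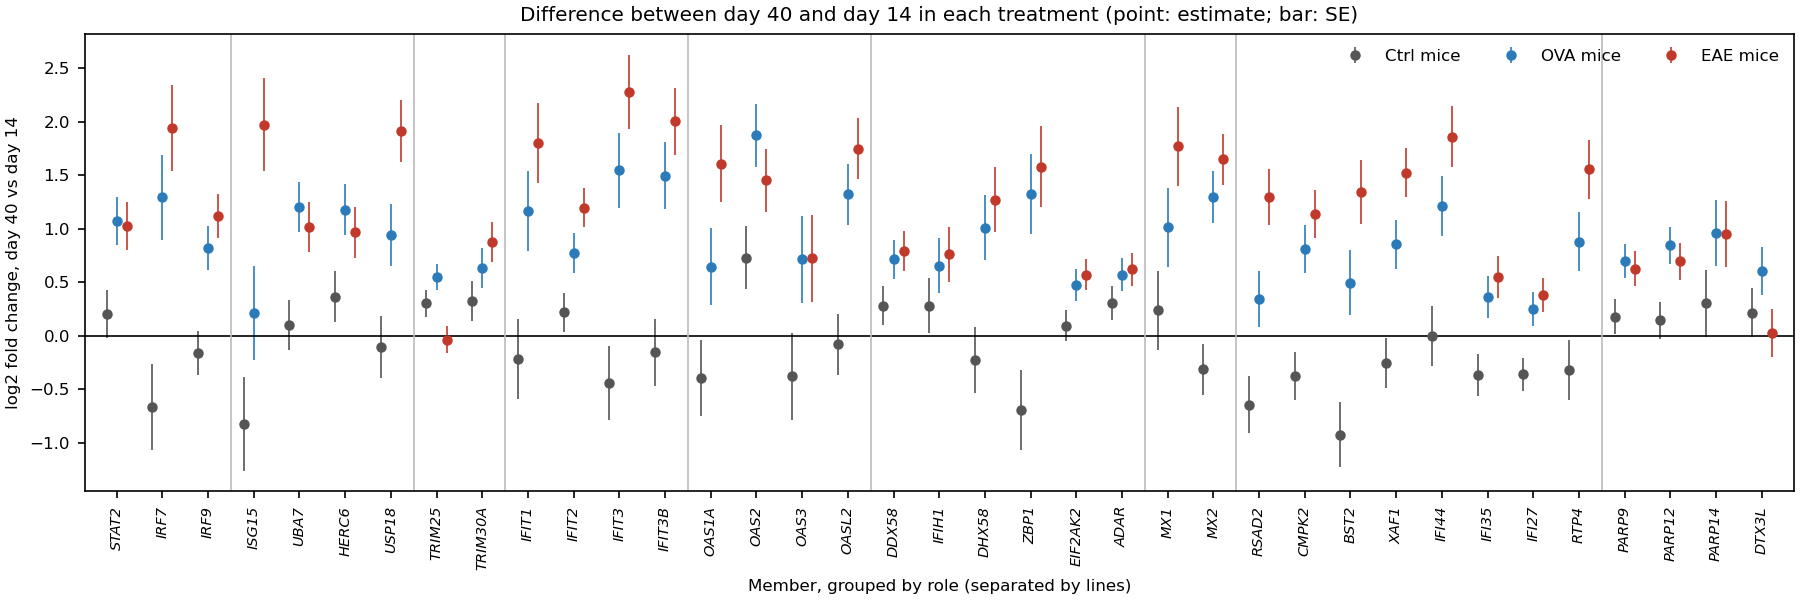
Log2 fold change of RPKM + 0.1 between day 40 and day 14 (vertical axis) for each of the 37 members, with a point and its standard error for Ctrl, OVA and EAE mice and members grouped by role. The EAE points lie above zero for 36 members with a median of 1.20 and the OVA points for all 37 with a median of 0.85, while the Ctrl points lie on both sides, with BST2 the lowest at -0.92.

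The rest of the pathway was followed in lists of ligands, receptors, inducers, negative regulators and further target genes. Of 21 interferon ligand genes, 18 had no read in any of the 30 mice, among them IFNB1, and no ligand had a read in an OVA or EAE mouse of day 14. IFNA4 was read in 1 mouse, IFNK in 1 and IFNG, the gene of interferon gamma, in 9, at no more than 0.207 RPKM. At these depths and with so few reads, a difference in ligands could not be judged.

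Of 9 receptor and kinase genes, 2 were called lower and 1 higher in EAE than in Ctrl mice of day 14. Counts over these lists and the marker lists come from the fit without filter. In it 11.3% of all genes were called lower and 9.17% higher. The receptor chain IFNAR1 had log2 fold change -0.15, SE 0.17, adjusted p = 0.474 and IFNAR2 log2 fold change -0.46, SE 0.15, adjusted p = 0.0196, the latter under the fold threshold. The kinase TYK2 was at -0.15 (adjusted p = 0.465) and JAK2 at 0.10, while JAK1 was higher (log2 fold change 0.70, SE 0.18, adjusted p = 0.00575). IFNGR2, a chain of the interferon gamma receptor, was lower (log2 fold change -0.91, SE 0.13, adjusted p = 6.58e-05), as was IL10RB (log2 fold change -0.76, SE 0.14, adjusted p = 0.00057).

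Among the 14 inducers that lie upstream of interferon, 4 were called lower and 1 higher, beside 11.3% and 9.17% of all genes. IRF3, which starts interferon beta transcription, had a log2 fold change of -0.10 and the adaptor MAVS of -0.13, neither called, while IRF5 fell (log2 fold change -1.30, SE 0.23, adjusted p = 0.000419) and the receptor TLR4 rose (log2 fold change 1.59, SE 0.27, adjusted p = 0.000297). Of 10 negative regulators 2 were called lower, SOCS1 (log2 fold change -1.73, SE 0.25, adjusted p = 7.69e-05), an inhibitor of the receptor kinases that interferons induce, and the phosphatase PTPN6 (log2 fold change -1.07, SE 0.27, adjusted p = 0.00483).

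Target genes outside the 37 members fell as well. The median log2 fold change of 49 other interferon stimulated genes between EAE and Ctrl mice of day 14 was -0.77. Of these genes, 30 were called lower, beside 11.3% of all genes. They included LY6E (log2 fold change -1.21, SE 0.23, adjusted p = 0.000647), SP110 (log2 fold change -1.53, SE 0.30, adjusted p = 0.000896) and IFITM3 (log2 fold change -0.79, SE 0.23, adjusted p = 0.0105), while IFITM1 had the opposite sign (log2 fold change 0.75, SE 0.28, adjusted p = 0.0412). Of 31 genes induced mainly by interferon gamma 21 were called lower, all 31 were below zero and the median was -1.59, as for IGTP (log2 fold change -2.71, SE 0.63, adjusted p = 0.00266), GBP3 (log2 fold change -2.43, SE 0.45, adjusted p = 0.000539), IRF1 (log2 fold change -1.44, SE 0.29, adjusted p = 0.000973) and PSMB9 (log2 fold change -1.92, SE 0.38, adjusted p = 0.000894). SOCS1, counted above as a negative regulator, is also among these 31 genes. Ctrl mouse 4, with the highest STAT2 and UBA7, also had the highest sum of this second list, 1276 RPKM beside 162.5 to 351.1 in the other Ctrl mice. Between EAE and OVA mice of day 14, 12 of the 49 and 6 of the 31 were called lower, beside 7.18% of all genes. On day 40 no gene of these lists was called in the limma fit of EAE against Ctrl or OVA mice. In these 2 comparisons 8 and 20 of the 49 and 2 and 20 of the 31 had an unadjusted p below 0.05.

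Markers of cell types that a whole muscle holds differed between the groups as well, in both directions. In bulk muscle fewer cells of a type and less RNA per cell cannot be told apart. In EAE against Ctrl mice of day 14, 9 of 10 fibroblast, 7 of 12 macrophage, 5 of 12 lymphocyte, 4 of 12 endothelial, 5 of 6 erythrocyte and 3 of 7 plasmacytoid dendritic cell markers were called lower, and 11 of 14 neutrophil markers higher. Of all genes, 11.3% were called lower and 9.17% higher. The fibroblast markers summed to 742.6 to 883.4 RPKM in Ctrl, 574.7 to 786.9 in OVA and 331 to 513 in EAE mice. Macrophage markers summed to 353.6 to 514.7, 328.5 to 507.9 and 166.1 to 367.3, and lymphocyte markers to 4.851 to 13.62, 4.477 to 6.941 and 2.467 to 5.666, with Ctrl mouse 1 the highest. Endothelial markers summed to 170.7 to 231.2 RPKM in Ctrl, 162.3 to 236.3 in OVA and 145 to 193.4 in EAE mice. Neutrophil markers summed to 5.467 to 12.35, 71.86 to 241.9 and 221.1 to 406.5, and erythrocyte markers to 219.4 to 809.3, 568.1 to 1973 and 32.5 to 229.8. Of the fibre and nerve markers 2 of 12 fast-fibre, 4 of 10 slow-fibre and 1 of 10 Schwann cell markers were called lower and none higher; slow-fibre markers summed to 1988 to 3223, 2052 to 3142 and 1289 to 2112 RPKM and Schwann cell markers to 116.3 to 126.1, 77.02 to 212.1 and 82.55 to 123.7, and both lists overlapped between EAE and Ctrl mice. No marker of these lists was without a read in all mice of a group of day 14. Of the markers of plasmacytoid dendritic cells, the main producers of interferon alpha, BST2 is itself a member and IRF8 is in the interferon gamma list. These 2 are thus not separate from the genes described. SIGLECH, the marker most particular to these cells, ranged over 0.114 to 0.547 RPKM in Ctrl and 0 to 0.146 in EAE mice. This is near the lower end of what could be measured. The part of these cell types in the lower level of the members was not tested.

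Across mice of the same group the members went up and down together. Over the deviations of the 30 mice from their group means, the 32 members above 1 RPKM had a median Pearson r of 0.699 with the mean of the other members, beside 0.021 for all 10989 genes of that level with the member mean. This is a description without a test, over libraries that share depth and composition within a mouse. XAF1 (0.898), OASL2 (0.883) and IFIT3 (0.855) followed the others most closely, and DTX3L (0.268), TRIM25 (0.329) and IFIH1 (0.405) least. The 31 other interferon stimulated genes of that level had a median r of 0.504 with the member mean and the 27 interferon gamma genes 0.404. Outside all lists, the genes with the most similar pattern were PHF11B (0.81), UNC93B1 (0.746), FGD2 (0.719), VASP (0.707) and CLK3 (0.695).

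Promoter letters and fold change could be set beside each other in 27 members. The 13 members with the ISRE letters in their window had a median log2 fold change between EAE and Ctrl mice of day 14 of -1.73, and the 14 without of -1.23. IRF7, OASL2 and XAF1 had no match but log2 fold changes of -2.67, -1.92 and -1.87, and EIF2AK2 and IFIH1, each with a match downstream of the start, had -0.66 and -0.76.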

How the data were processed

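EDL muscle of 30 mice, 5 in each of 6 groups, was measured by poly(A) RNA-Seq with a strand-marking kit. Paired-end reads were mapped by the authors with Subread (mm10), counted per RefSeq gene by featureCounts and expressed as RPKM; the strand setting was not given in the sources used here. The authors deposited 1 table of log2 values, log2(RPKM + 1), with 0.0001 for a gene without a read (25.8% of values). The scale was read from the values: taken as log2(RPKM + 1), 97.1% of 12238 low values were whole multiples of 1 read within 0.05 reads, against 80.3% as natural logs and 59.4% as RPKM. Values were converted back to RPKM.

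Comparisons used limma 3.58.1 in R 4.3.3 (lmFit, eBayes with trend) on log2(RPKM + 0.1), in 1 model of 15 mice for comparisons within a day and all 30 mice for comparisons between days and interactions. Tests took genes whose mean exceeded 3 RPKM in either compared group, and a call required a fold change over 1.5 and a p under 0.05 after Benjamini-Hochberg adjustment. EdgeR, which the authors used, needs read counts, which were not used here. The model was tested on simulated data. Alternatives were other pseudocounts, filters, scalings, models and fold thresholds, a replicate block, and leaving out mice. Members with full values were the most abundant of each role, those with the largest fold change in a comparison and those called on day 40; the other genes named were chosen after their values were seen. The members and lists were chosen with earlier results of these data known. Coordinates come from GENCODE M21 (GRCm38, the assembly of mm10) and promoter windows from RefSeq.

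Reads per mouse were estimated at 15.0M to 23.5M (median 20.25M) from the RPKM of single reads. Correlations of same-numbered mice between groups of a day ran from -0.728 to 0.699. On day 14 their median was 0.26 for OVA with EAE mice, beside -0.083 for other pairs, and 0.125 beside -0.006 for Ctrl with OVA mice. For Ctrl with EAE mice and for all groups of day 40 it was below that of other pairs. Whether the numbers pair mice or name a batch cannot be told from these values.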

Additional observations from a re-analysis of the deposited data

Results flagged for a closer look

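Single mice stood apart from the other 4 of their group, by a gap of more than 0.71 of the group's range, in 8 of the 108 groups tested; chance alone gives about 1 in 20. IFIT3 was at 3.88 RPKM in OVA mouse 5 of day 14, at 13.9 in Ctrl mouse 1 of day 40 and at 17.6 in OVA mouse 3 of day 40. MX2 was at 1.69 RPKM in Ctrl mouse 1 and at 0.263 in OVA mouse 4 of day 14, and at 1.74 in OVA mouse 3 of day 40. IFIT3B was at 1.26 RPKM in EAE mouse 5 and STAT2 at 6.44 in Ctrl mouse 3 of day 40.

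The difference between EAE and Ctrl mice changed between the days, by the interaction term of limma, for 11 of the members with full values. Of all genes above 3 RPKM, 11.7% were called in this direction. The change on the log2 scale was 2.80 for ISG15, 2.72 for IFIT3, 2.60 for IRF7, 2.27 for BST2, 2.16 for IFIT3B, 1.88 for RTP4, 1.83 for OASL2, 1.28 for IRF9, 0.92 for UBA7, 0.82 for STAT2 and 0.74 for IFI27. Between EAE and OVA mice it was 1.76 for ISG15, beside 8.16% of all genes above 3 RPKM called in this direction. TRIM25, EIF2AK2, PARP9 and PARP14 also had full values and were not among the 11. MX2 and OAS2 had means under 3 RPKM in the EAE and Ctrl mice. IFIT3, IFIT3B and IRF7 had full values for their large change on day 14, which is a part of the interaction, so the count of 11 depends on that choice. The cause of these values was not tested.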

How the results depend on the processing

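Counts of called members in this paragraph start from genes above 3 RPKM. For EAE vs Ctrl on day 14, 18 members were called lower, 35 with no filter, 30 with a mean above 1 RPKM over all mice and 30 with no filter and without Ctrl mice 1 and 4, since more members are tested. Of all genes 1036, 1966, 1387 and 1437 were called lower in the same order. For EAE vs OVA on day 14, 4 became 15 with no filter and also with the 1 RPKM filter. Of all genes, 805 became 1254 and 1042. For OVA vs Ctrl on day 14, 2 became 1 with the 1 RPKM filter, median-of-ratios scaling or only the compared mice, 4 with all 30 mice in 1 model and 0 without Ctrl mice 1 and 4, with or without the filter. Of all genes called lower, 4 became 3, 3, 1, 28 and 0 in this order. For EAE vs OVA on day 40, 2 became 0 with no filter, the 1 RPKM filter, median-of-ratios scaling, quantile normalization, only the compared mice and all 30 mice in 1 model. Of all genes, 15 called lower became 1 to 12 in these settings. For EAE vs Ctrl on day 40, 0 became 1 with no fold threshold, while for all genes 34 called lower became 204. Between the days, Ctrl mice had 1 lower, or 0 lower without mice 1 and 4 of day 14 (with no filter also 1 higher), OVA mice had 17 higher or 10 with quantile normalization, and EAE mice had 15 higher, 31 with no filter and 27 with the 1 RPKM filter. Of all genes, Ctrl mice had 382 lower, or 135 without mice 1 and 4 (with no filter 126, and 395 higher). OVA mice had 195 higher, or 146 with quantile normalization, and EAE mice 728, 1627 and 1040. The interaction of EAE and Ctrl was called for 15, or 23 with no filter, and that of EAE and OVA for 1, or 2 with the 1 RPKM filter, with 1 lower without the fold threshold. Of all genes, 1059 and 1399 were called higher for the former. For the latter 729 and 814 were, with 2145 lower without the fold threshold. The cause of changes other than the number of genes or mice was not tested.

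With the replicate number as a block, member calls of OVA vs Ctrl on day 14 and of EAE vs OVA on day 40 went to 0, beside 3 and 0 of all genes called lower. Member calls of EAE vs Ctrl on day 14 stayed at 18 and of EAE vs OVA at 4, beside 1048 and 816 of all genes. The labels give the replicate numbers no meaning beyond naming mice.

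Leaving out 1 mouse at a time gave 0 to 3 calls for OVA vs Ctrl on day 14 (3 without Ctrl mouse 5, otherwise 0), 0 to 1 for EAE vs Ctrl and 0 to 2 for EAE vs OVA on day 40 (2 without OVA mouse 1, 1 without EAE mouse 1, otherwise 0), 16 to 21 for EAE vs Ctrl on day 14, 0 to 4 lower in Ctrl and 10 to 18 higher in OVA mice between the days, and 0 to 3 higher and 0 to 1 lower for the interaction of EAE and OVA. The 1 call of EAE vs Ctrl on day 40 came without Ctrl mouse 4, where 181 of all genes were called lower. In these fits, 0 to 4 of all genes were called lower for OVA vs Ctrl and 866 to 1127 for EAE vs Ctrl on day 14. On day 40 these counts were 1 to 181 for EAE vs Ctrl and 2 to 21 for EAE vs OVA. Between the days, Ctrl mice had 0 calls without mouse 1 of day 14 or mouse 3 of day 40, 2 without mouse 2 and 4 without mouse 5 of day 14, and OVA mice had 10 without mouse 1 of day 14 or mouse 3 of day 40. The interaction of EAE and OVA had 0 higher calls without OVA mouse 5 or EAE mouse 2 of day 14 or OVA mouse 4 or EAE mouse 3 of day 40, and 3 without EAE mouse 5 of day 40; the 1 lower call came without any 1 of OVA mice 2, 3 and 4 and EAE mice 1, 4 and 5 of day 14, and OVA mouse 1 and EAE mice 4 and 5 of day 40.

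Signs turned in values near zero. TRIM25 on day 14 was 0.06 for EAE vs Ctrl and 0.01 for OVA vs Ctrl without Ctrl mice 1 and 4, with or without the filter, and -0.03 for EAE vs OVA with median-of-ratios scaling or quantile normalization. For EAE vs Ctrl on day 40, IFI27 was 0.04 with median-of-ratios scaling, and IFIT3 was 0.02, OASL2 0.06 and IRF7 0.05 with quantile normalization; EIF2AK2 was 0.01 for OVA vs Ctrl with the latter. Without 1 mouse, TRIM25 ran from -0.14 to 0.03 (EAE vs Ctrl), -0.07 to 0.12 (EAE vs OVA) and -0.19 to 0.01 (OVA vs Ctrl) on day 14. On day 40, EAE vs Ctrl ran from -0.04 to 0.26 for BST2, -0.10 to 0.05 for IFI27, -0.20 to 0.17 for IFIT3, -0.39 to 0.18 for IRF7, -0.26 to 0.05 for OASL2 and -0.15 to 0.21 for RTP4. EAE vs OVA ran from -0.18 to 0.29 for ISG15, and OVA vs Ctrl from -0.10 to 0.02 for EIF2AK2, -0.07 to 0.45 for IFIT3, -0.23 to 0.11 for IFIT3B and 0.00 to 0.38 for ISG15.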
